A study of Homo sapiens with 4 samples.

Results

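The MAPK output and feedback genes are 10 genes whose transcription is driven by the BRAF-MEK-ERK cascade in BRAF-mutant melanoma: DUSP4, DUSP5, DUSP6, SPRY2, SPRY4, SPRED1, SPRED2, ETV4, ETV5 and PHLDA1. They were examined in chromatin from A375, an established human melanoma cell line with an activating BRAF mutation, by chromatin immunoprecipitation and sequencing for H3K27ac, the acetylated form of histone H3 found at active promoters and enhancers. Cells received 1 mM octanoate, a medium-chain fatty acid, or its vehicle isopropanol for 48 hours, and the labels give 2 libraries of each group, all 4 from this 1 cell line. Every region that the authors assigned to 1 of the 10 gene symbols was taken as a member, which gave 291 of the 91107 distinct regions in the authors' deposited table. That table gives 1 comparison of the groups, with a mean level, a log2 fold change and its standard error for each region but none for a single library, so no level of a single sample can be shown and no spread between replicates was computed. Its header does not say which group is the numerator, and fold changes are therefore called positive or negative, not gains or losses under octanoate. A symbol beside a region is the authors' assignment of a gene and does not show that the region acts on that gene.

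In melanoma with mutant BRAF, the kinase cascade of RAF, MEK and ERK is active without a growth factor, and ERK drives transcription through ETS and AP-1 factors. ERK also induces its own brakes. The dual-specificity phosphatases DUSP4, DUSP5 and DUSP6 remove phosphate from MAP kinases, and the Sprouty (SPRY) and Spred (SPRED) proteins dampen the signal from receptors and RAS. ETV4 and ETV5 are ETS transcription factors of the PEA3 group, and PHLDA1 is a pleckstrin homology-like protein whose transcript is widely used as a readout of ERK activity.

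At the level of whole regions, all of the genes but SPRED2 carried broad acetylated domains over their starts, and the fold changes of all 10 starts lay near those of start regions in general. Each of the 10 genes had a region at distance 0, read as overlap with its start, and all 10 of these regions were positive in the authors' deposited table, with log2 fold changes from 0.15 to 0.47. Of all start regions, 98.1% were positive in the authors' deposited table, so the sign does not set the 10 apart. Their median of 0.35 equalled that of the 9996 start regions with an adjusted p in the authors' deposited table, also 0.35. The 2720 of those regions with a level at or above the lowest of the 10 had a median of 0.30, and 7 of the 10 lay above it. That difference was not tested. None of the 10 had an adjusted p under 0.05 in the authors' deposited table, where 0.860% of all start regions did. By unadjusted p, 3 of the 10 were under 0.05 in the authors' deposited table, against 19.2% of all start regions. Away from starts, 1 region, upstream of DUSP5, had an adjusted p under 0.05 in the authors' deposited table. That is 0.746% of the 134 member regions with an adjusted p, against 1.67% of all regions, and the call was lost after the median of all regions was subtracted (adjusted p = 0.607). Regions far downstream of DUSP6 had higher values than those around its start in the authors' deposited table, a difference that was not tested.

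The regions were unevenly spread over the genes. SPRY2 had 72 regions in the authors' deposited table, the farthest 1704 kb from its start. DUSP4 had 41, PHLDA1 38, SPRED2 32, DUSP6 31, SPRY4 27, DUSP5 22 and SPRED1 19, and the ETS factors had the fewest, with 7 for ETV4 and 2 for ETV5. The median gene of the authors' deposited table had 3 regions. The authors gave 134 of the 291 regions an adjusted p, or 46.0%, against 40.0% of all regions in the authors' deposited table. The other 157, with mean levels of at most 18.44, hold the value 1 in the authors' deposited table and were treated as not tested. Those 157 regions had a median log2 fold change of 0.16 in the authors' deposited table, against 0.21 for all 54671 regions without an adjusted p. Of the 134, 19 overlapped the body of their own gene in the RefSeq annotation of GRCh38.p14, 37 overlapped only other genes, and 78 overlapped none. The regions of ETV4 and PHLDA1 at the start are also listed with DHX8 and NAP1L1 in the authors' deposited table, and were counted once.

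Marker genes were described beside the label of the cells. Of 8 genes of the melanocyte lineage and melanoma, 5 had a region at the start in the authors' deposited table, and MLANA, TYR and DCT had none. Start regions are common there, 10642 over 17301 genes, so this count does not test the label. Levels were 774 for SOX10 (41.2 per kb), 340 for S100A1 (39.8), 269 for PMEL (27.9), 98.4 for MITF (24.7) and 55.2 for S100B (15.1). The median start region had a level of 83.7, and 25.3 per kb. None of 3 keratinocyte and none of 3 leukocyte markers had a start region. Of 3 fibroblast markers COL1A2 and DCN did, with mean levels of 2.46 and 36.2 in the authors' deposited table.

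Domains at the starts were wide, except that of SPRED2, at 3.55 kb. The ETV4 region (chromosome 17, 43523795 to 43548470 in the hg38 build named in the submitters' processing notes) covered 24.7 kb and the PHLDA1 region (chromosome 12, 76015240 to 76039537) 24.3 kb, both covering the whole RefSeq gene. The ETV4 region also overlaps DHX8 and the PHLDA1 region NAP1L1, and the part of each gene in width and level cannot be told apart. For all regions at starts, the authors' deposited table gives a median width of 3186 bases and a median level of 83.7. In width, 9 of the 10 member regions were above the 90th percentile of those start regions, and in level 8 were, the exceptions in level being ETV5 and SPRED2. Since a wider region collects more reads, the level per kb was also taken. It was 44.5 for SPRY2, 43.5 for DUSP6, 38.8 for DUSP4, 37.6 for SPRY4, 36.7 for SPRED1, 36.4 for SPRED2, 36.2 for PHLDA1, 35.9 for ETV4, 33.8 for DUSP5 and 23.6 for ETV5, computed from the authors' deposited table. On this scale 9 of the 10 genes lay above the median of 25.3 per kb over start regions, and ETV5 lay below it, at percentile 41.9. For 9 genes the start region had the highest level of all regions assigned to the gene in the authors' deposited table. In SPRED2 that place belonged to a wider region inside the gene, whose level per kb was lower, at 17.

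**Figure D1:**
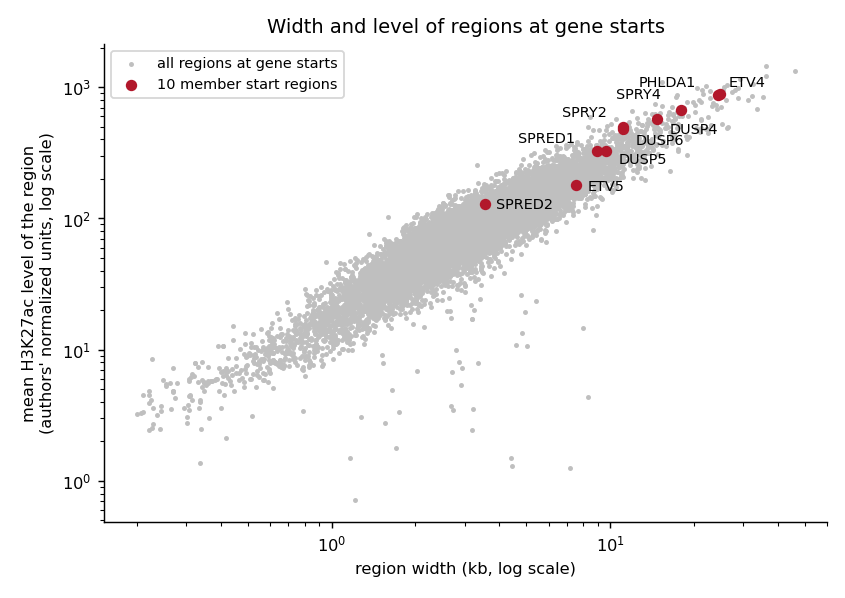
Each point is 1 region at a gene start, with its width in kb and its mean level in the authors' normalized units, both on log scales. Of the 10 member regions (red), all but SPRED2 lie toward the upper right of all 10642 start regions (grey), and SPRED2 lies nearer the middle at 3.55 kb.

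DUSP5, a nuclear phosphatase specific for ERK, and ETV4 had the most positive start regions. At DUSP5 (chromosome 10, 110494779 to 110504393) the log2 fold change was 0.47 (SE, the authors' standard error, 0.21, 95% interval 0.06 to 0.88) in the authors' deposited table, a ratio of 1.38. ETV4 had 0.45 with an interval from 0.04 to 0.87 in the authors' deposited table. The third interval that lay above 0 was that of PHLDA1, with 0.37 (0.02 to 0.71) in the authors' deposited table. These intervals are normal intervals from the authors' standard errors and carry whatever difference in scaling the libraries had.

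The other start regions had intervals that contained 0. SPRED2 (chromosome 2, 65429886 to 65433440), a protein that brings neurofibromin to the membrane to switch RAS off, had 0.39 (SE 0.25) in the authors' deposited table, and its relative SPRED1 (chromosome 15, 38249833 to 38258786) had 0.29 (SE 0.20). DUSP4 (chromosome 8, 29339290 to 29353993), a nuclear phosphatase of ERK and other MAP kinases, had 0.36 in the authors' deposited table. For the Sprouty adaptors, SPRY2 (chromosome 13, 80332578 to 80343697) had 0.35 and SPRY4 (chromosome 5, 142311611 to 142329510) had 0.30 in the authors' deposited table. ETV5 (chromosome 3, 186103458 to 186111007) had 0.29 in the authors' deposited table. The lowest value belonged to DUSP6 (chromosome 12, 89345593 to 89356692), the cytoplasmic ERK phosphatase, with 0.15 (SE 0.21) and an interval from -0.26 to 0.55 in the authors' deposited table.

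In order of fold change, none of the 9 steps between neighbouring genes was larger than the smaller of their standard errors, and all 10 intervals contained 0.32, the median of all 36436 regions with an adjusted p in the authors' deposited table. The 10 values had an SD of 0.09, under their standard errors of 0.18 to 0.25 in the authors' deposited table. The order of neighbouring genes is therefore not resolved by these data. Small steps between neighbours do not bear on the ends of the order, and the difference between DUSP6 and DUSP5 was not tested.

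**Figure D2:**
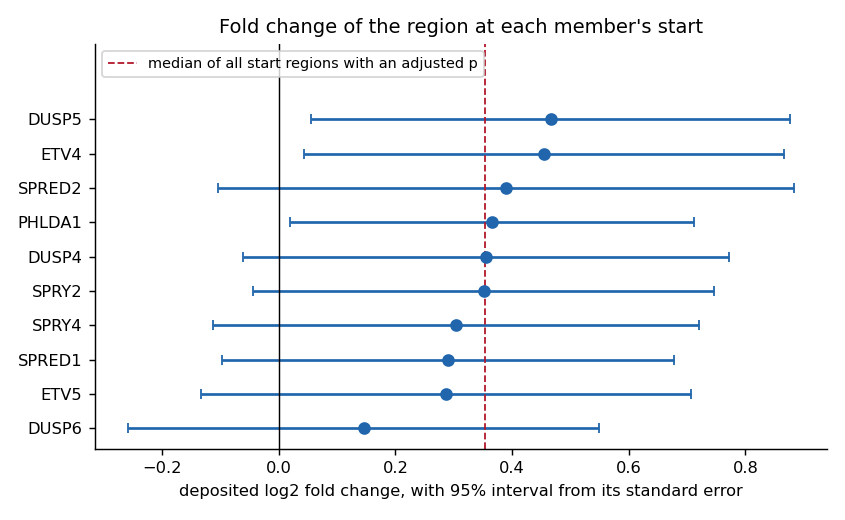
Log2 fold change of the region at each gene's start (points) with the 95% interval from the authors' standard error (bars), in order of size. Points run from 0.15 for DUSP6 to 0.47 for DUSP5, and every bar crosses the dashed median of all start regions (0.35).

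Promoter windows of GRCh38.p14 from RefSeq, each 250 bases before to 50 after a start, matched 6 of the 10 genes with 9 windows. DUSP4, DUSP5, ETV4 and ETV5 were not matched. All 9 windows lay inside a member region, and 8 of them inside the region at distance 0. The ninth was a second start of SPRED2, inside the gene. It is shown because the acetylated region around it had the highest level of those assigned to SPRED2. That region is wider, and its level per kb was 17, against 36.4 for the SPRED2 region at distance 0. Below are the 250 bases before both SPRED2 starts and before the start of DUSP6, the gene with the lowest start value, 5′ to 3′, with CG pairs in capitals. Their places are chr2:65432600-65432849, chr2:65366779-65367028 and chr12:89352502-89352751, all on the minus strand.
SPRED2 first start: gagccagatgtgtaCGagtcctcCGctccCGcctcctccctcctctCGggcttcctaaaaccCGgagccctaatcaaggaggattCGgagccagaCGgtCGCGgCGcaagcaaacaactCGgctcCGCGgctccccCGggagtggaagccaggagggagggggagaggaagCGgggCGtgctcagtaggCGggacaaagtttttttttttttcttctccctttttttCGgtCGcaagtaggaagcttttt
SPRED2 inner start: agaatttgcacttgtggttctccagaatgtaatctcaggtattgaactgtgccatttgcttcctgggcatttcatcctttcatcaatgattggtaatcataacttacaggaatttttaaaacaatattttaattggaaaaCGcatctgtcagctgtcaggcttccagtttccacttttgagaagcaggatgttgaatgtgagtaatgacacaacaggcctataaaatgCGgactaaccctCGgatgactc
DUSP6 start: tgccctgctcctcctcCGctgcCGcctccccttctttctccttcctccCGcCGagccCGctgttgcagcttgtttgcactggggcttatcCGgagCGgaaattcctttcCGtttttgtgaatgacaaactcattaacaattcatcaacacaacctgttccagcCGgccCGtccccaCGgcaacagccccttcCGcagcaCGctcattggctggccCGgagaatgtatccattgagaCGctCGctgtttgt

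The first SPRED2 stretch held 19 CG pairs, the inner one 3 and the DUSP6 stretch 16. Over the whole 300-base windows, the first SPRED2 start had 23 CG pairs and 60.0% G and C, and the inner start had 4 and 39.3%, against medians of 14 pairs and 58.7% over 35116 windows. The region around the inner start (chromosome 2, 65363903 to 65372937) lay 59.2 kb from the first start and had the highest level assigned to SPRED2, 154, and a log2 fold change of -0.04 (SE 0.23) in the authors' deposited table. The region at the first start had 0.39, so the values lay 0.43 apart, less than the 2 standard errors added together. That sum is not the standard error of a difference, and the difference between the 2 starts was not tested.

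Windows were searched on both strands for letters that ETS factors (CCGGAAG and GGAAGT), AP-1 (TGACTCA) and CREB (TGACGTCA) are known to bind. TGACTCA was in 1 of the 9 windows, that of the inner SPRED2 start, and in 4.95% of all windows. GGAAGT was in 1, an inner start of SPRY2, and in 22.8% of all windows. CCGGAAG and TGACGTCA were in none of the 9, and in 10.3% and 1.85% of all windows. The matches are printed with 10 bases on each side and the motif in capitals, on the strand of the gene, where the SPRY2 match reads as the reverse complement. Their places are chr2:65366768-65366794 and chr13:80340099-80340124, both on the minus strand.
SPRED2 inner start: aaccctcggaTGACTCAtccggtacaa
SPRY2 inner start: ggggcaggagACTTCCagggtgagaa

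Over all 134 regions with an adjusted p, the members' values lay slightly above those of the whole table. Their median log2 fold change was 0.39 in the authors' deposited table, against 0.32 for all regions, and 122 of them, 91.0%, were positive, against 87.3%. A call was an adjusted p under 0.05, and 1 member region, 0.746%, was called in the authors' deposited table, against 1.67% of all regions. At an unadjusted p under 0.05 there were 39 member regions in the authors' deposited table, or 29.1%, against 18.4% of all regions. Of these, 38 were positive (28.4%, against 17.9% of all regions), beside 9 of the genes, and 1 was negative, and 14 of the 39 lay beside DUSP5 or DUSP6. Without DUSP5 and DUSP6, 25 of the remaining 104 regions were under 0.05 in the authors' deposited table, or 24.0%, with a median fold change of 0.35. After the median of all regions was subtracted, 3 member regions lay above it and 1 below it at an unadjusted p under 0.05, or 2.24% and 0.746%, against 2.60% and 3.13% of all regions, computed from the authors' deposited table. None of the 134 had an adjusted p under 0.05 after this subtraction, where 0.124% of all regions did. These shares describe regions that share libraries and neighbourhoods and are not a test.

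**Figure D3:**
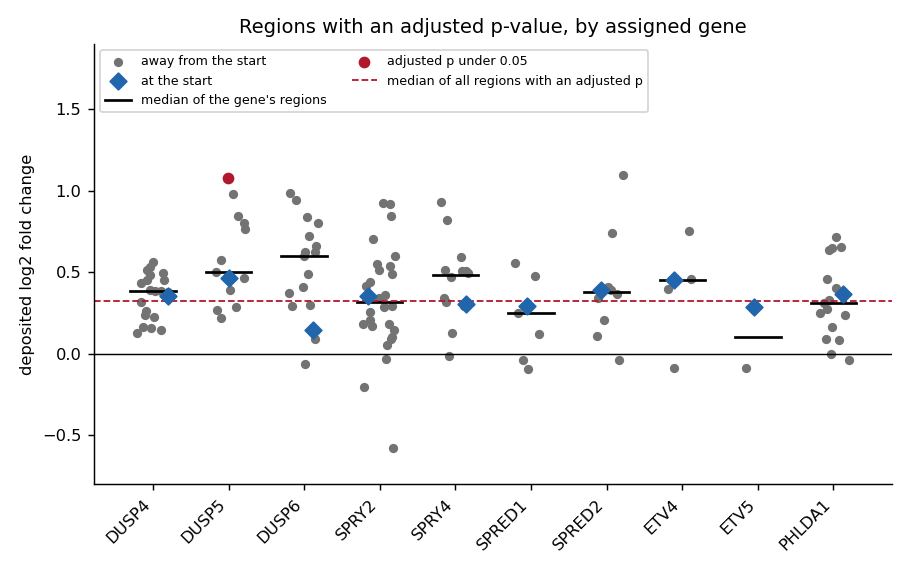
Log2 fold changes of the 134 member regions with an adjusted p, by assigned gene, with regions at starts as diamonds, the 1 call in red, each gene's median as a bar and the median of all regions (0.32) as a dashed line. Gene medians run from 0.10 for ETV5 to 0.60 for DUSP6, where the start region has 0.15.

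Position was described in 3 classes, at the start, within 100 kb and beyond 100 kb. Members within 100 kb had a median log2 fold change of 0.39 over 52 regions in the authors' deposited table, against 0.32 for all such regions. Beyond 100 kb the members had 0.39 over 72 regions and all regions had 0.27 in the authors' deposited table. In that class 24 of the 72, or 33.3%, were at an unadjusted p under 0.05 in the authors' deposited table, against 16.0% of all such regions, and none was called. The members there also had a higher median level, 48.9 against 36.8, and a smaller median standard error, 0.289 against 0.315. The part of level and standard error in the share was not tested. Regions upstream of a member's start had a median of 0.38 over 60 regions and those downstream 0.41 over 64 in the authors' deposited table.

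Among the 10 genes, DUSP5 had the only call. The region (chromosome 10, 110418937 to 110420619), 77.2 kb upstream of the start and in no annotated gene, had a log2 fold change of 1.08 (SE 0.31), a mean level of 35.8 and an adjusted p of 0.0382 in the authors' deposited table. The call was lost when p-values were adjusted over all distinct regions (adjusted p = 0.094) and when the median of all regions was subtracted (adjusted p = 0.607), both computed from the authors' deposited table. Its neighbours on both sides were also positive. The adjoining region of 12.4 kb had 0.58 at a level of 317, and regions 73.4 and 70.2 kb upstream had 0.76 and 0.80 in the authors' deposited table, with adjusted p from 0.122 to 0.163. Downstream of the gene, regions 26.7 and 29.4 kb from the start had 0.98 and 0.85 in the authors' deposited table (adjusted p 0.119 and 0.0753). The 7 regions from 49.5 kb upstream to 13.3 kb downstream, the start among them, lay lower, between 0.22 and 0.50 in the authors' deposited table. This grouping by position was made after the values were seen.

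For DUSP6, values near the start and far from it are given apart, a grouping singled out among the 10 genes after the values were seen. The 5 regions at the start or within 100 kb had log2 fold changes from -0.06 to 0.30 in the authors' deposited table, all below 0.32. The 12 regions beyond 100 kb, all downstream of the gene, lay between 0.37 and 0.99 in the authors' deposited table, with a median of 0.64, and all were above 0.32. The 2 sets did not overlap, but the difference was not tested. Of all regions, 50.1% within 100 kb and 42.5% beyond it were above 0.32 in the authors' deposited table. The direction was shared by SPRED2, with medians of 0.29 within 100 kb and 0.74 beyond it (3 far regions), in the authors' deposited table. SPRED1 also shared it, with 0.12 and 0.56 (1 far region). Medians went the other way for SPRY2 (0.44 and 0.29), PHLDA1 (0.34 and 0.28), DUSP4 (0.43 and 0.38) and SPRY4 (0.49 and 0.32). DUSP5, ETV4 and ETV5 had no region beyond 100 kb. Of the far regions, 7 had an unadjusted p under 0.05 in the authors' deposited table, against 16.0% of all regions beyond 100 kb. The most positive (chromosome 12, 89134174 to 89137297), 216.0 kb away and in no annotated gene, had 0.99 (SE 0.30) and an adjusted p of 0.0557 in the authors' deposited table, which became 0.738 after the median of all regions was subtracted. The strongest of the 7 by level, 188.3 kb away with a level of 109, had 0.66 with an adjusted p of 0.112 in the authors' deposited table. The far regions had lower levels, with a median of 32.8 against 71.3 for the near ones in the authors' deposited table, and the part of level in the difference was not tested. The near regions above the start, upstream of DUSP6, lie within the RefSeq readthrough gene POC1B-DUSP6.

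**Figure D4:**
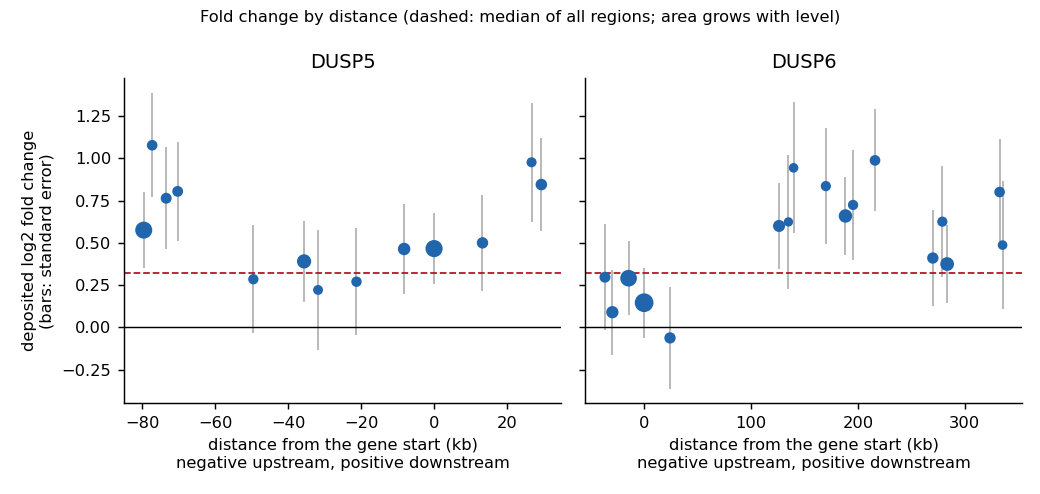
Log2 fold change of the regions of DUSP5 and DUSP6 with an adjusted p, by distance from the start in kb (upstream negative), with standard errors as bars and larger points for higher levels. In DUSP5 the values are higher at both ends of the stretch, up to 1.08, and in DUSP6 the points beyond 100 kb downstream lie above the dashed median of all regions while those near the start lie below it.

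DUSP4 showed the narrowest spread of the genes with more than 10 such regions. Its 21 regions with an adjusted p were all positive in the authors' deposited table, between 0.13 and 0.56, with a median of 0.38, where 87.3% of all regions were positive. At an unadjusted p under 0.05 there was 1, or 4.76% against 18.4% of all regions in the authors' deposited table. It was a region 229.2 kb upstream (chromosome 8, 29577992 to 29594000) with 0.51 and a level of 227.

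Of the 10 genes, the Sprouty gene SPRY2 had the widest range of values, and also the most regions with an adjusted p. A range grows with the number of regions, and the SD of 0.33 for SPRY2 was close to the 0.32 of SPRED2. SPRY2 regions with an adjusted p, 28 in all, ran from -0.58 to 0.92 in the authors' deposited table, with a median of 0.32. Its lowest region (chromosome 13, 80435221 to 80438235), 94.3 kb upstream, had -0.58 (SE 0.29) in the authors' deposited table. It was the only member region with a negative value at an unadjusted p under 0.05 (0.0461), a class that holds 0.475% of all regions in the authors' deposited table. Farther upstream, regions at 127.7 and 132.4 kb had 0.55 and 0.92 in the authors' deposited table. Downstream of SPRY2 a region 343.7 kb away had 0.92 with an adjusted p of 0.0760 in the authors' deposited table. None of these SPRY2 regions was called. SPRY4 had 14 regions with an adjusted p and a median of 0.48 in the authors' deposited table. Its most positive region (chromosome 5, 142340862 to 142343709), 15.8 kb upstream, had 0.93 (SE 0.31) and an adjusted p of 0.0916 in the authors' deposited table. Farther upstream, at 27.5, 112.5 and 139.6 kb, 3 wide regions with levels of 386, 266 and 336 had 0.51, 0.51 and 0.52 in the authors' deposited table. Among them, at 108.2 kb, lay the lowest SPRY4 region, with -0.01 (SE 0.29) in the authors' deposited table. The regions up to 112.5 kb overlap the antisense RNA gene SPRY4-AS1, and ChIP reads do not tell which of overlapping genes a region belongs to.

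Values at the Spred genes were mostly near the table's median. SPRED1 had 7 regions with an adjusted p and a median of 0.25 in the authors' deposited table, of which the most positive, 120.2 kb upstream, had 0.56 and the lowest, 33.2 kb upstream, -0.09. SPRED2 had 10 with a median of 0.38 in the authors' deposited table. Its highest value, 1.09 (SE 0.40), belonged in the authors' deposited table to a weak region 113.2 kb upstream, with a level of 20.6 and an adjusted p of 0.122. Within the gene, a region 110.1 kb downstream of the start had 0.74 with an adjusted p of 0.0948 in the authors' deposited table.

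The output transcription factors had few regions. ETV4 had 5 with an adjusted p, from -0.09 to 0.75 in the authors' deposited table, and 76.7% of the summed level assigned to it lay in the start region. That region also overlaps DHX8, so its level is not that of ETV4 alone. ETV5 had 2, the start and a region 8.3 kb into the gene with -0.09 (SE 0.24) in the authors' deposited table. PHLDA1 had 17, all at the start or downstream, with a median of 0.31 in the authors' deposited table. Its second domain (chromosome 12, 75930381 to 75956912), 77.0 kb downstream and 26.5 kb wide, had 0.46 at a level of 679 in the authors' deposited table (unadjusted p 0.0200, adjusted 0.197). Between 169.2 and 245.5 kb downstream, 4 PHLDA1 regions had values from 0.63 to 0.72 in the authors' deposited table with unadjusted p under 0.05 and no call. The other 3 regions of that stretch with an adjusted p, at 181.1, 196.5 and 215.2 kb, had 0.16, 0.33 and 0.24 in the authors' deposited table. Beyond 100 kb, PHLDA1 had 4 of 12 regions under 0.05, or 33.3% against 16.0% of all such regions, and a median of 0.28 against 0.27 in the authors' deposited table. These PHLDA1 regions had a higher median level, 56.2 against 36.8, and its part in the share was not tested.

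Other genes of the pathway were taken from lists that, like the 10 genes, were chosen with earlier results of these data known. The 16 other ERK output genes, such as the ETS factor ETV1 and the receptor EPHA2, had 79 regions with an adjusted p and a median of 0.43 in the authors' deposited table, and 4 regions beside 3 genes were called, all positive, or 5.06% against 1.67% of all regions. These were 2 regions beside ETV1 (1.03 at 138.0 and at 207.6 kb), 1 beside the immediate early gene IER5 (0.96, adjusted p 0.00779) and 1 beside the adaptor SH2B3 (0.83, 4.7 kb from the start) in the authors' deposited table. The lowest value of that list was -0.36 (SE 0.31), beside the Sprouty gene SPRY1, in the authors' deposited table.

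Among 7 other MAP kinase phosphatases, 31 regions had a median of 0.47 in the authors' deposited table and 2 were called, 6.45% against 1.67% of all regions. These regions lay beside DUSP1, DUSP2, DUSP7, DUSP10 and DUSP16, with DUSP10 holding the most, and none lay beside DUSP8 or DUSP9. The DUSP1 region (chromosome 5, 172797282 to 172802159), 26.1 kb from the start of a phosphatase of stress-activated kinases and ERK, had 1.14 (SE 0.26) and an adjusted p of 0.00629 in the authors' deposited table. The DUSP10 region, 298.2 kb away, had 0.88 with an adjusted p of 0.00608 in the authors' deposited table. The list's lowest value in the authors' deposited table was -0.15, beside DUSP16.

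Regions beside 5 inhibitors of the cascade, 25 in number, had a median of 0.31 and 0 calls in the authors' deposited table, against 1.67% of all regions called. At an unadjusted p under 0.05 there were 3 of the 25, against 18.4% of all regions, and values ran in the authors' deposited table from -0.34 beside NF1 to 0.55 beside RASA1. None of the 6 calls of these lists passed after the median of all regions was subtracted, with adjusted p from 0.301 to 0.719. No region at a start was called among 16 starts of ERK output genes, 5 of phosphatases and 5 of inhibitors. Of all start regions, 0.860% were called in the authors' deposited table, so so few starts could hardly show a call. At an unadjusted p under 0.05 there were 7 of 16, 4 of 5 and 0 of 5 in the authors' deposited table, against 19.2% of all start regions. Median values of these starts were 0.48, 0.47 and 0.38, against 0.35 for all start regions. The difference between these lists and the 10 genes was not tested.

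**Figure D5:**
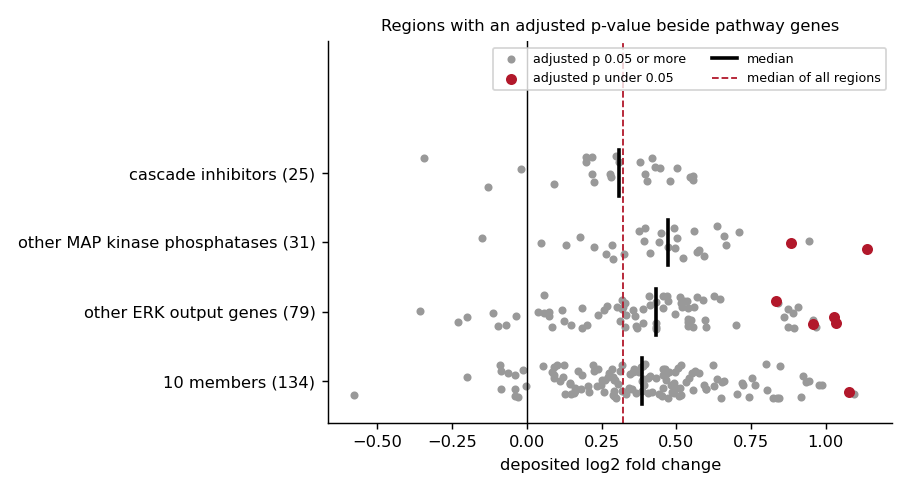
Log2 fold changes of regions with an adjusted p beside the 10 feedback and output genes and beside 3 lists of pathway genes (number of regions in brackets), with calls in red and medians as bars. Medians run from 0.31 to 0.47 and the 7 calls are all positive.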

How the data were processed

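H3K27ac libraries, 2 per group, were assigned to vehicle or octanoate by the treatment in the labels. The submitters' processing notes name hg38, Trim Galore, cutadapt, FastQC, Bowtie2, Picard, MACS2, featureCounts, DESeq2 and bedtools 2.29.1, with no roles or order. How peaks were pooled is not given in the sources used here. Per the file headers, the deposited table holds a mean normalized signal per region, a log2 fold change with its standard error, a score (their quotient, to within 3.38e-14), a p-value and an adjusted p-value. Repeating the Benjamini-Hochberg step on the 36436 regions whose adjusted value was under 1 matched the deposited values to within 1.58e-14. The depth of each library is unknown, and 0 columns of single libraries were left out. The distances point, for each gene, to 1 position near an end of its RefSeq gene, at most 2157 bases away.

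Computed here, with Python 3.11.15, pandas 2.3.3 and scipy 1.17.1, were distinct regions, medians, shares, normal 95% intervals, levels per kb, overlaps with RefSeq genes and motif counts. No test could be fitted without values per library, as foreseen in the design. In centring, the median fold change was subtracted and two-sided normal p-values from the deposited standard errors were adjusted anew. The procedure was run on simulated data with independent noise and effects larger than any member value. That simulation does not show how often effects of the members' size would be found. Calls are adjusted p-values under 0.05. Members and lists were chosen with earlier results of these data known. Named regions are those at starts, of highest level, at an unadjusted p-value under 0.05, and the extremes of each gene, and in the lists the calls and extremes. Another list of pathway genes is not reported here, for a reason unrelated to its values. Whether the libraries came from separate cultures is not stated. Alternatives were other thresholds, filters on level, distance limits, adjustment over all regions, centring and leaving out each gene.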

Additional observations from a re-analysis of the deposited data

How the results depend on the processing

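Of the authors' deposited calls, the single one among the members was lost (count 0) at an adjusted p under 0.01, 0 with adjustment over all distinct regions, 0 after centring and 0 at starts alone. The count was 1 with a fold change past 1 (log2) in size, a mean level of at least 10, a limit of 100 kb or all lines. Over the whole table the 608 calls became 128, 319 (size past 1), 250 and 45 in the corresponding settings. The members' median of 0.385 was 0.303 with no filter and 0.061 after centring, and lay between 0.353 and 0.373 under the other filters. Across the 10 settings that leave out 1 gene each, medians ran from 0.366 to 0.390 and positive shares from 89.4 to 92.1%. The positive share of 91.0% was 77.7% with no filter, 97.4% at a mean level of at least 100, 100.0% at starts and 59.0% above the median after centring. The fall under centring follows from its construction, and for the other settings the cause was not tested. Of 57 regions examined singly, 1 lost its call after centring and 1, the same DUSP5 region, with adjustment over all distinct regions, and the other 56 were not called in either setting. No paired analysis was possible because values of single libraries are not part of the table used here, and for that reason other normalizations, count filters and leaving out of replicates were not run.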
